A study of Mus musculus with 39 samples.

Results

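The unfolded protein response was followed in mouse liver through 10 genes, Hspa5, Hsp90b1, Xbp1, Atf4, Ddit3, Creld2, Sdf2l1, Dnajb9, Herpud1 and Pdia4, out of 17013 genes with a RefSeq probe on the array. A probe was taken for a gene when the RefSeq accession printed beside it belonged to that gene, which gave 13 probes, 3 for Dnajb9, 2 for Hsp90b1 and 1 for each of the others. Each gene is described by its brightest probe, and the other probes of Hsp90b1 and Dnajb9 are given beside it. The livers came from 39 male C57BL/6J mice, described as 5 to 6 weeks old and kept singly. Aggressor-exposed (AggE) mice were placed daily inside the cage of a trained SJL aggressor, a strain whose males are aggressive, for 5 or 10 days, and were let out at random times to be attacked. Control (Ctrl) mice went through the same schedule and cage-in-cage confinement, without food during the sessions, and with no aggressor present. All mice met the cue of the sessions in a partition test shortly before collection. Livers were taken 24 h after the 5-day regimen (4 Ctrl, 5 AggE), 24 h after the 10-day regimen (4 Ctrl, 5 AggE), 1.5 wk after the 5-day regimen (4 Ctrl, 5 AggE) and 4 wk after the 10-day regimen (6 Ctrl, 6 AggE).

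Each liver RNA, in Cy5, was hybridized on 1 array against a reference RNA in Cy3, and values are given as log2 ratios, liver over reference, of single probes. Ratios of different genes cannot be set against each other as levels. The labels disagree in part on the regimen: some descriptions of the 5-day, 24-h AggE mice give a single day, and titles of the 1.5-wk AggE mice, and of 1 of the 4 Ctrl mice there (mouse 4), give 10 days. The title of that Ctrl mouse also starts with HC, where those of the other Ctrl mice start with C, and it does not say what HC means. The groups used here follow the source label of the liver channel. The 39 arrays lay on 11 slides scanned on 2 days. At both 24-h points no slide held Ctrl and AggE livers together, so slide and group cannot be told apart there. At 1.5 wk 1 slide held 3 Ctrl livers and 1 AggE liver, and at 4 wk 1 other slide did. Log2 ratios of 2 arrays correlated at 0.69 to 0.98 over all probes, and 20.1% to 79.9% of RefSeq probes per array were well above background. In each group, 6 of 6 hepatocyte markers were well above background on all arrays.

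The unfolded protein response is the program by which a cell adjusts its endoplasmic reticulum (ER) when proteins there fail to fold. In its IRE1 arm, the sensor splices the mRNA of the transcription factor XBP1. In its PERK arm, phosphorylation of the initiation factor eIF2 slows translation and raises ATF4, which acts upstream of CHOP, the product of Ddit3. In its ATF6 arm, a membrane-bound factor is cut in the Golgi and moves to the nucleus. Their targets are ER chaperones (BiP from Hspa5, GRP94 from Hsp90b1), cochaperones (ERdj4 from Dnajb9, SDF2L1), disulfide enzymes (Pdia4, Creld2) and parts of ER-associated degradation (Herpud1). Hepatocytes secrete most plasma proteins, and their response also moves with feeding and with the time of day. An array that reads total mRNA reports neither XBP1 splicing nor the protein of ATF4.

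The ER stress response elements that ATF6 and XBP1 bind with NF-Y could be read directly in the promoters of 4 of the 10 genes, which are shown for that reason. The letters are the 250 bases before the annotated start, 5′ to 3′ on the strand of the gene, from RefSeq promoters of GRCm38.p6. Capitals mark the ERSE (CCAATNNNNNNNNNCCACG) in Hspa5, Hsp90b1 and Creld2 and the ERSE-II (ATTGGNCCACG) in Herpud1, found on either strand. The windows are chr2:34771840-34772089 (+ strand), chr10:86705445-86705694 (- strand), chr15:88819396-88819645 (+ strand) and chr8:94386179-94386428 (+ strand).
Hspa5: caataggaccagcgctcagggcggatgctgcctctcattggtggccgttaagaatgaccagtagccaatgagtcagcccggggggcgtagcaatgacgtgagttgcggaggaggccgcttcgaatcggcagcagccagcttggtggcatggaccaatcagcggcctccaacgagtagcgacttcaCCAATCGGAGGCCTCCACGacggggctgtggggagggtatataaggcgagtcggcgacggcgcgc
Hsp90b1: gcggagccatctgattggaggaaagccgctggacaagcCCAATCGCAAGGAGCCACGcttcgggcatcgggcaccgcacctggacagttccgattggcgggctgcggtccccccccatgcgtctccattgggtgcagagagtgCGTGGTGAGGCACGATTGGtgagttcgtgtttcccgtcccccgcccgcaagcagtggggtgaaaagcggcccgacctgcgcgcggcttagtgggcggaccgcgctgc
Creld2: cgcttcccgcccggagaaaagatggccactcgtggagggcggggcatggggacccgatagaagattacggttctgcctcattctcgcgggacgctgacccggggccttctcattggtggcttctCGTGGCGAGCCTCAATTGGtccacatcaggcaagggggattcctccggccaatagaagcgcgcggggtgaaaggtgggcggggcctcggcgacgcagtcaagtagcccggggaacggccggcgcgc
Herpud1: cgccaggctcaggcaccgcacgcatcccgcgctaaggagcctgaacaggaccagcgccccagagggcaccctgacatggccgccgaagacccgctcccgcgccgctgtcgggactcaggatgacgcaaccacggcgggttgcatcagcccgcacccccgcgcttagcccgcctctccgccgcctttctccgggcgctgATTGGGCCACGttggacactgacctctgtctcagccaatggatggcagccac
Of 32851 RefSeq promoters of this length, 37 (0.113%) held an ERSE, against 3 of the 10 genes. In Hspa5 it ran from base 65 to base 47 before the start, and Hsp90b1 held 2, of which 1 was on the other strand. An ERSE-II was found in 10 promoters (0.0304%), of which 1 was Herpud1, where it began 52 bases before the start. The UPRE letters (TGACGTGG) were in 185 promoters (0.563%) and in 0 of the 10. The CARE letters (TGATGNAA), a form of the element for ATF4, were in 1134 (3.45%) and in 1 of the 10, Herpud1, 112 to 105 bases before the start. The 2 ends of an ERSE are common by themselves: CCAAT was in 33.8% of promoters and 9 of the 10, and CCACG in 28.3% and 7 of the 10, and each ERSE is counted under both. A match is a stretch of letters and was not tied to binding here, and the genes were named because of their place in this response.

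**Figure D1:**
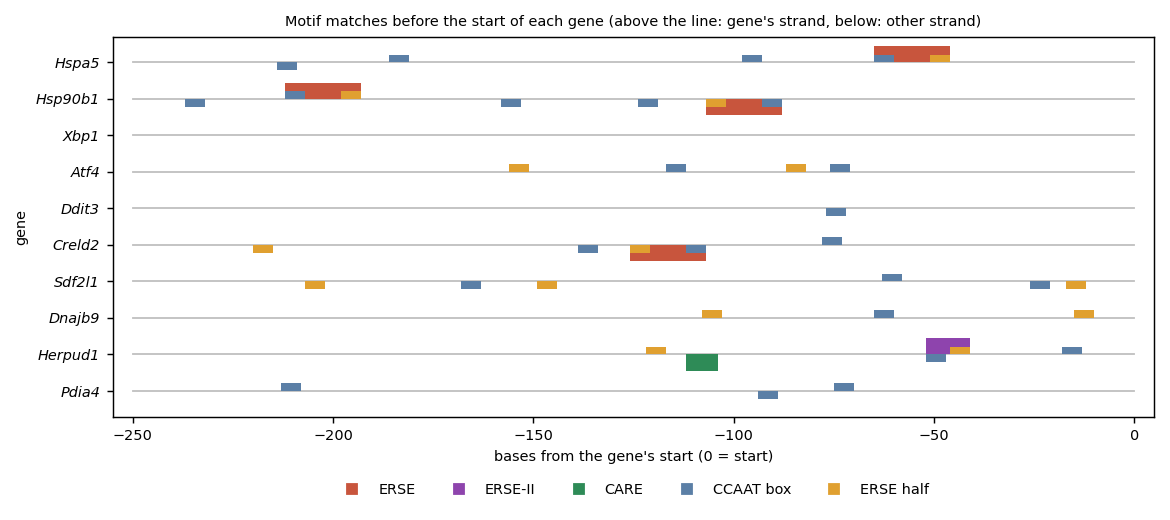
Matches to 5 motifs in the 250 bases before the start of each of the 10 genes, with the distance from the start in bases on the horizontal axis and 1 line per gene. Boxes above a line are on the strand of the gene and boxes below it on the other strand: ERSE boxes stand in Hspa5, Hsp90b1 and Creld2, an ERSE-II and a CARE box in Herpud1, and Xbp1 has 0 boxes.

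AggE and Ctrl livers were compared at each time point to ask whether exposure to the aggressor moved these genes. None of the 10 was called, at an adjusted p of 0.05 or less in limma over all probes, in any of the 4 comparisons. Over all genes, 3.27% were called 24 h after 5 days, 0.094% 24 h after 10 days, 0% 1.5 wk after 5 days and 4.13% 4 wk after 10 days. At an unadjusted p of 0.05 or less, 1 gene was lower 24 h after 5 days (Dnajb9), where 16.9% of all genes passed, and 0 passed at the next 2 points, where 2.84% and 2.47% did. At 4 wk 3 passed, Dnajb9 and Xbp1 higher and Hsp90b1 lower, where 22.6% of all genes did. For 0 of the 10 did AggE values lie wholly outside the Ctrl range, which was so for 7.53%, 1.86%, 0.805% and 1.85% of all genes in the same order. The median log2 difference over the 10 was -0.17, 0.009, -0.11 and -0.05, against medians of all genes between -0.004 and 0.008. AggE was lower by its mean for 8 of 10, 4 of 10, 10 of 10 and 8 of 10. Of all genes 49.8%, 49.6%, 48.2% and 52.5% were higher in the same order. The numbers over the 10 rested on single livers, and the 10 varied together in part (median correlation of 0.22 between pairs). At 1.5 wk 6 of 10 were lower without AggE mouse 2, which lay on another slide and was scanned on another day than the rest of its group, and Hsp90b1 (0.03), Xbp1 (0.11), Sdf2l1 (0.04) and Pdia4 (0.07) turned higher. At 24 h after 10 days 2 of 10 were lower without Ctrl mouse 1 and 7 without Ctrl mouse 4 or AggE mouse 1, and at 4 wk 4 were without Ctrl mouse 2 or 3 and 5 without AggE mouse 4. At 24 h after 5 days 7 to 9 were. The 95% intervals reached at most 0.69 to either side of a difference, so differences of that log2 size or below could not be told from 0 for the most variable gene. These p-values measure the spread between mice of a group, 1 liver each. At both 24-h points most livers of a group shared a slide, so that spread holds little of the spread between slides. With slide as a random block (correlation 0.32), 9 of all genes were called 24 h after 5 days, against 556 without it. In a piece of liver, fewer cells of a type and less RNA per cell cannot be told apart.

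**Figure D2:**
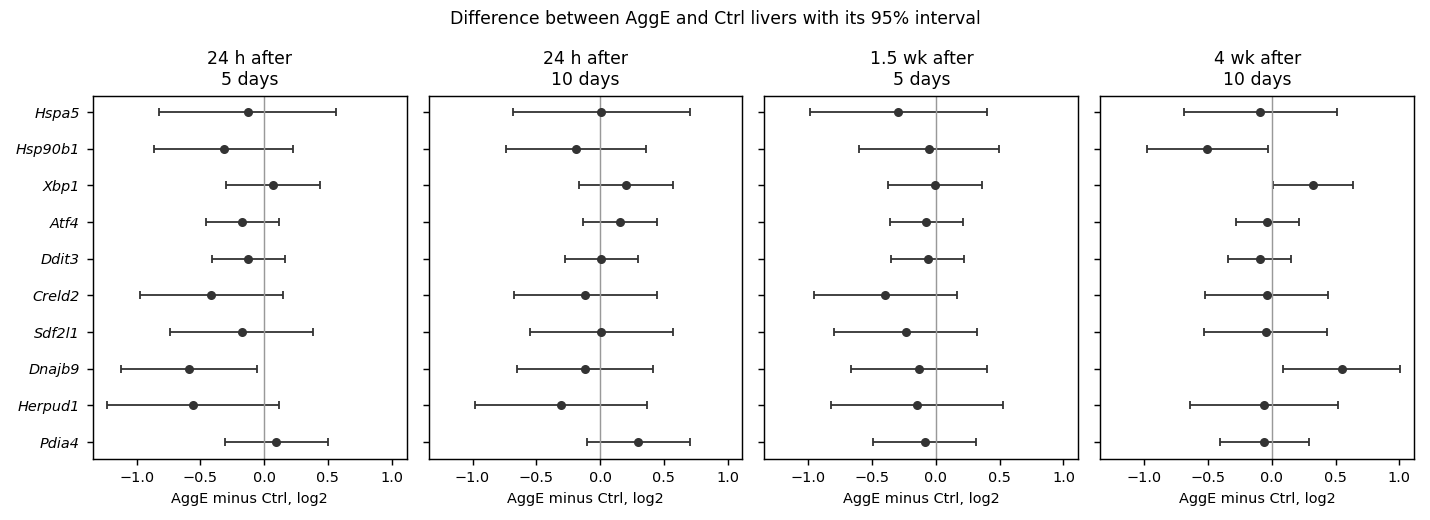
Log2 difference between the AggE and Ctrl means (points) with its 95% interval (bars) for the 10 genes, 1 panel per time point. Only the intervals of Dnajb9 (24 h after 5 days, and 4 wk), Hsp90b1 and Xbp1 (both 4 wk) leave out 0 before adjustment, and 0 of 10 passed after it.

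Among the 3 transcription factors, Xbp1, which encodes the factor of the IRE1 arm, showed the largest difference, at 4 wk. Its log2 ratio there ran from -1.001 to -0.31 in Ctrl livers, with a median of -0.64, and from -1.03 to 0.11 in AggE livers, with a median of -0.27. The ranges overlapped, with the lowest value in an AggE liver, mouse 1, and the 3 highest in other AggE livers. The difference was 0.32 ± 0.16 (SE, n = 6 and 6), with a limma adjusted p of 0.235. Mouse 1 was the AggE liver that shared a slide with 3 Ctrl livers, and there it lay 0.21 below them. Without that mouse the difference was 0.46, with a limma adjusted p of 0.043. Over the 15 alternatives that keep all mice, the difference ran from 0.05 to 0.58. At the other 3 points Xbp1 differed by 0.07, 0.20 and -0.0092 (24 h after 5 days, 24 h after 10 days, 1.5 wk).

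Atf4 encodes the translation-controlled factor of the PERK arm, and its differences were -0.17, 0.16, -0.07 and -0.04 at the 4 points. Its interval was the narrowest but one of the 10, reaching 0.25 to either side at 4 wk, from -0.29 to 0.21. Ddit3, the CHOP gene, was dim: in AggE livers 24 h after 5 days its probe was well above background on 0 of 5 arrays, and in Ctrl livers on 2 of 4. No size is given for that comparison, where limma's adjusted p was 0.738, and Ddit3 enters the counts and medians over the 10 there by its fitted ratio. At the other points, where some arrays of each group measured it, Ddit3 differed by 0.0092, -0.07 and -0.10, and at 4 wk the interval ran from -0.34 to 0.15. For Xbp1 and Atf4 the intervals stayed within 0.64 of 0 on the log2 scale at each of the 4 points.

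The main ER chaperones are Hspa5 (BiP, which also holds the sensors inactive) and Hsp90b1 (GRP94). The log2 spread within groups was 0.53 for Hspa5, larger than for 97.4% of all genes and than for 86.5% of genes of similar brightness. For Hsp90b1 it was 0.42, larger than for 94.4% of all genes but for 70% of those of similar brightness, a share that ran from 45.7% (Atf4) to 91.6% (Dnajb9) over the 10. Hspa5 24 h after 5 days was -1.77, -1.45, -0.65 and -1.53 in Ctrl livers and -1.53, -1.40, -1.68, -1.16 and -1.61 in AggE livers, so the AggE values lay within the Ctrl range. Its 4 differences were -0.13, 0.0088, -0.30 and -0.09, with intervals of 0.60 to 0.69 to either side. The 1.5-wk value ran from -0.60 without Ctrl mouse 2 to -0.04 without Ctrl mouse 3.

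Hsp90b1 was lower in AggE by its mean at all 4 points, with differences of -0.32, -0.19, -0.06 and -0.51. Leaving out single livers gave -0.51 to -0.21 in place of the first, -0.31 to -0.05 in place of the second, -0.18 to 0.08 in place of the third and -0.67 to -0.37 in place of the last. The second Hsp90b1 probe, like the first well above background on 39 of 39 arrays, gave -0.27, -0.25, -0.37 and -0.41, so the 2 probes differed most at 1.5 wk, and its adjusted p-values were 0.332 or above. At 4 wk its log2 ratio ran from -0.18 to 1.09 in Ctrl livers (median 0.30) and from -0.72 to 0.75 in AggE livers (median -0.07). Of 6 AggE livers 3 lay below the whole Ctrl range. The difference at 4 wk was -0.51 ± 0.23 (SE), with a limma adjusted p of 0.209. Within the slide that held 3 Ctrl livers and AggE mouse 1, that mouse lay 0.19 above the Ctrl mean for Hsp90b1, 1.24 above it for Hspa5 and 1.50 above it for Dnajb9. Since this mouse is the one AggE liver that shared a slide with Ctrl livers of that point, a fit with slide as a fixed block leans on it. In that fit the 4-wk difference was 0.24 for Hsp90b1 and 1.13 for Hspa5 (adjusted p = 0.181), and the median over the 10 genes was 0.16. Arrays left as loess made them, with no normalization between arrays, gave 2 calls at 4 wk, where 1718 of all genes were called. The 2 were Hsp90b1 at -0.86 (limma adjusted p = 0.037) and Xbp1 at 0.58 (limma adjusted p = 0.0199).

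Dnajb9 encodes ERdj4, a BiP cochaperone that represses IRE1 and is a classic XBP1 target, and it was the gene with the largest differences, in opposite directions at 2 points. Its log2 ratio 24 h after 5 days was 0.93, 0.28, 1.46 and 0.28 in Ctrl livers and 0.16, 0.33, 0.27, -0.17 and 0.14 in AggE livers. The 2 high Ctrl livers stood above all AggE livers, and the 2 low ones lay among them. The difference was -0.59 ± 0.26 (SE), with an interval from -1.13 to -0.06 and a limma adjusted p of 0.224. Without Ctrl mouse 3, the highest liver, it was -0.35. At 4 wk Dnajb9 ran from -0.49 to 0.85 in Ctrl livers (median 0.29) and from 0.13 to 1.70 in AggE livers (median 0.83). Of 6 AggE livers 3 lay above the Ctrl range and 3 within it. The difference was 0.55 ± 0.23 (SE), with an interval from 0.09 to 1.01 and a limma adjusted p of 0.160. It ran from 0.37 to 0.68 when single livers were left out. Over the 15 alternatives that keep all mice it ran from 0.27 to 1.17. The 3 Dnajb9 probes disagreed at 4 wk. The second gave -0.04 (adjusted p = 0.944). The third, dimmer and well above background on 26 of 39 arrays, gave 0.70 ± 0.19 (SE) with an adjusted p of 0.0365, the one passing value among the 13 probes in these comparisons. Over the other settings this probe's 4-wk difference stayed above 0, from 0.34 to 1.69, but its adjusted p exceeded 0.05 in 10 of 14, and leaving out single mice gave adjusted p-values from 0.0168 to 0.122. At 24 h after 5 days the second probe was well above background on 0 of 5 AggE arrays and 4 of 4 Ctrl arrays, at least 1.09-fold lower in AggE on the Cy5 scale (adjusted p = 0.5) with no overlap of the groups, and the third gave -0.28. At 24 h after 10 days they gave -0.07 and -0.28, and at 1.5 wk -0.08 and -0.13, beside -0.12 and -0.13 for the first.

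Sdf2l1, a partner of the ERdj3 cochaperone that also serves folding in the ER, differed by -0.18, 0.01, -0.24 and -0.05. Its 1.5-wk values were -0.34, -0.82, 0.07 and -0.25 in Ctrl livers and -0.19, -1.68, -0.48, -0.42 and -0.11 in AggE livers, so AggE mouse 2 alone lay below the Ctrl range. The remaining 4 AggE livers lay within it. Its interval at 1.5 wk ran from -0.80 to 0.32, and without AggE mouse 2 the difference was 0.04.

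Creld2, a disulfide isomerase-like protein induced early in ER stress, was lower in AggE by its mean at all 4 points, with differences of -0.41, -0.12, -0.40 and -0.04. The 1.5-wk difference was -0.06 without Ctrl mouse 3 and -0.21 without AggE mouse 2, and the others ranged from -0.53 to -0.26, from -0.31 to 0.10 and from -0.14 to 0.11 when single livers were left out. The values 24 h after 5 days were -1.45, -1.12, -0.62 and -1.18 in Ctrl livers and -1.51, -1.54, -1.57, -1.24 and -1.67 in AggE livers. The ranges overlapped through 1 AggE liver, mouse 4, and the other 4 lay below the lowest Ctrl liver. The difference of -0.41 had an interval from -0.98 to 0.15 and a limma adjusted p of 0.484, and without Ctrl mouse 3, the highest liver, it was -0.26. Pdia4 (ERp72), a protein disulfide isomerase, differed by 0.10, 0.30, -0.09 and -0.06, and its largest, 24 h after 10 days, had an interval from -0.11 to 0.71 and was 0.18 without Ctrl mouse 4.

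Herpud1 encodes HERP, which assembles the membrane complex of ER-associated degradation, and its spread between mice was next to that of Hspa5 at 0.52. Its log2 ratio 24 h after 5 days was 2.40, 1.85, 2.27 and 1.58 in Ctrl livers and 1.66, 1.73, 1.59, 1.02 and 1.34 in AggE livers. The 3 highest livers were Ctrl and the 2 lowest AggE, with an overlap between 1.58 and 1.73. The difference was -0.56 ± 0.33 (SE), with an interval from -1.23 to 0.12 and an adjusted p of 0.414. The differences at the other points were -0.31, -0.15 and -0.06, of which the first ran from -0.52 to -0.11 when single livers were left out. On the slide shared at 1.5 wk, the AggE liver was 1.08 below the mean of the 3 Ctrl livers for Herpud1 and 0.42 below it for Creld2, but 0.26 above it for Sdf2l1.

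**Figure D3:**
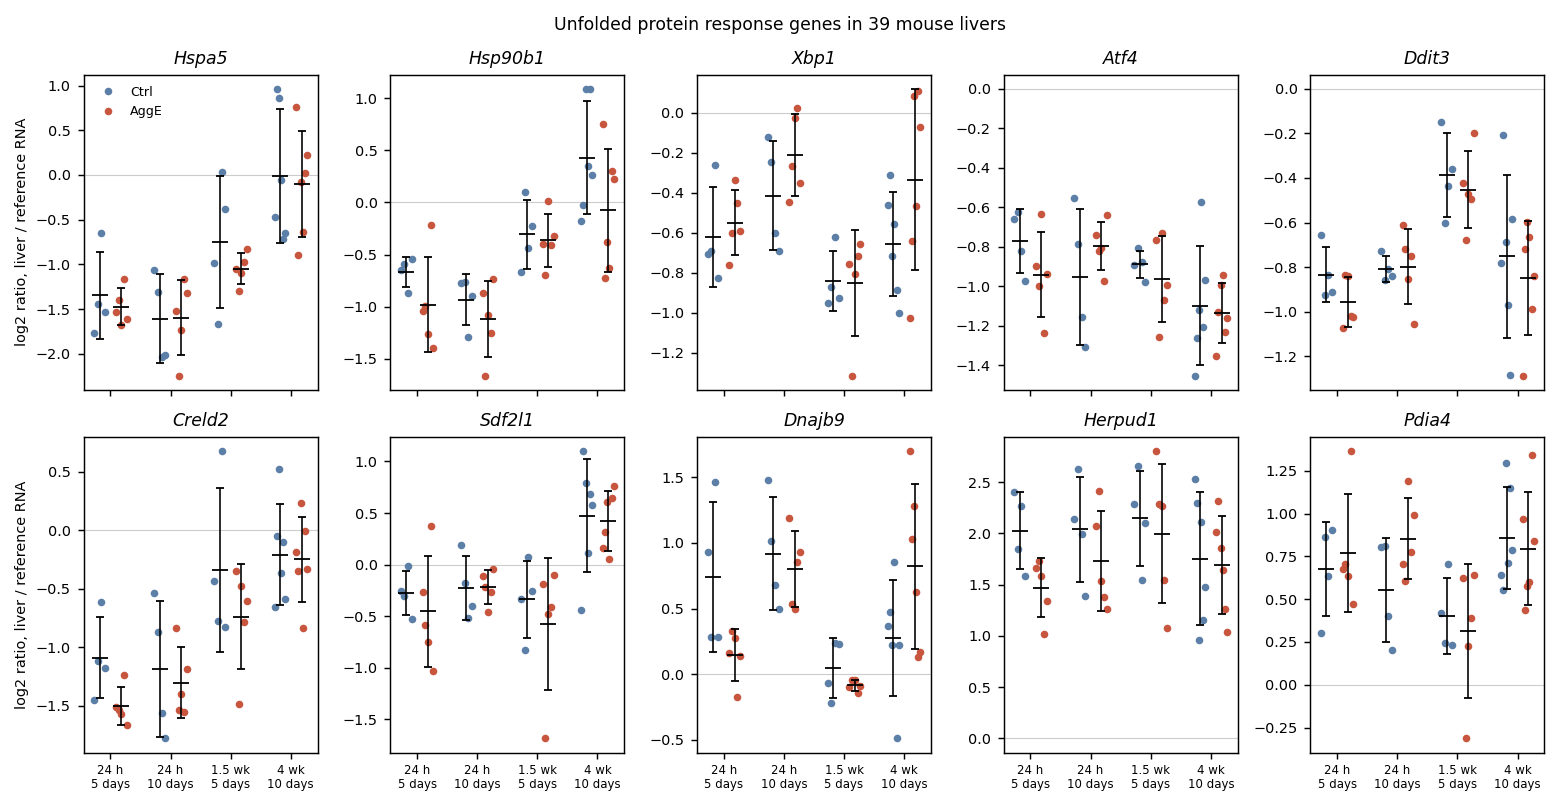
Log2 ratio of liver to reference RNA (vertical axes) for each of the 39 mice (points), 1 panel per gene, at the 4 time points, with Ctrl in blue and AggE in red and the group mean ± SD as black bars. Ctrl and AggE values overlap in all 40 pairs of groups, while Hspa5, Hsp90b1, Creld2 and Sdf2l1 are highest at 4 wk in both by their means. The second Hsp90b1 probe, not shown, is highest at 1.5 wk in both.

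The differences between the comparisons were tested directly, since a change after 5 days but not after 10 days would show there. The change 24 h after 5 days minus that after 10 days was below 0 for 10 of 10 genes (9 without Ctrl mouse 3 of either regimen), with a median of -0.20, and 0 of 10 were called, against 0.0353% of all genes (0 of 10 and 6.32% unadjusted). Of all genes 48.3% were above 0 there. The smallest limma adjusted p among the 10 was 0.844, for Atf4. For the change at 24 h minus that at 1.5 wk after the 5-day regimen, the median was -0.04 and 0 of 10 were called, against 0.0999% of all genes (0 and 7.62% unadjusted). For the change at 24 h minus that at 4 wk after the 10-day regimen, the median was 0.08 and 0 of 10 were called, against 0.0823% of all genes (0 and 10% unadjusted). The comparisons of each pair share no mice.

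Ctrl livers were also compared with each other across the 4 time points, which differ in slide, in regimen, in the age of the mice and in the day of the scan, which was the first for all 24-h livers, the second for all 4-wk livers and mixed at 1.5 wk. All Ctrl livers of each 24-h point lay on 1 slide. By limma's moderated F with adjustment over all probes, 5 of the 10 genes were called, where 31.6% of all genes were. With slide as a random block 0 of 10 were called, with limma adjusted p-values of 0.183 for Hspa5 and 0.111 for Hsp90b1. The share of all genes called is not given here for this fit or for the other alternatives among Ctrl livers. Whether a loss of calls was particular to the 10 genes can therefore not be told. The values that follow are from the fit without slide. The share of RefSeq probes well above background also differed between the Ctrl groups, at 33.7% to 40.8% 24 h after 5 days, 40.2% to 55.0% 24 h after 10 days, 24.7% to 51.0% at 1.5 wk and 56.8% to 79.9% at 4 wk. The summed Cy5 signal of 6 hepatocyte markers was 78134 to 98948 in Ctrl livers at 1.5 wk and 113702 to 159696 at the other points. That of 7 stellate and fibroblast markers was 2895 to 5007 at both 24-h points, 7563 to 15622 at 1.5 wk and 5837 to 9867 at 4 wk. That of 6 endothelial markers was 676 to 1213 at 1.5 wk and 2079 to 3012 at the other points, and that of 7 macrophage markers 1246 to 3419 and 2361 to 6940. The part of these shifts in the values below was not tested. Hspa5 spanned a 3.02-fold range of Ctrl means (adjusted p = 0.00118), Hsp90b1 2.58-fold (adjusted p = 0.000566), Creld2 1.97-fold (adjusted p = 0.007), Dnajb9 1.83-fold (adjusted p = 0.038) and Sdf2l1 1.75-fold (adjusted p = 0.0359). For Hspa5 the Ctrl means were -1.35 ± 0.49 (SD, n = 4) 24 h after 5 days, -1.61 ± 0.50 (n = 4) 24 h after 10 days, -0.75 ± 0.74 (n = 4) at 1.5 wk and -0.012 ± 0.75 (n = 6) at 4 wk. Its AggE means were -1.48, -1.60, -1.05 and -0.10 in the same order. Neighbours in that order overlapped, while all 6 Ctrl livers at 4 wk lay above all 4 Ctrl livers 24 h after 10 days. Hsp90b1 ran likewise, with Ctrl means of -0.66, -0.93, -0.31 and 0.43, and its 4-wk Ctrl livers lay above all Ctrl livers of both 24-h points. Its second probe was called as well (limma adjusted p = 0.00116), but in another order. The Ctrl means of that probe were -0.21, -0.09, 1.11 and 0.68, highest at 1.5 wk. By that probe the 4-wk Ctrl livers, from -0.22 upward, overlapped the Ctrl livers 24 h after 10 days, which reached 0.22.

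Dnajb9 followed another order, with Ctrl means of 0.74, 0.92, 0.05 and 0.28, highest 24 h after 10 days and lowest at 1.5 wk. Of its 3 probes 1 was called (the others gave adjusted p-values of 0.864 and 0.188). Herpud1 (adjusted p = 0.762), Xbp1 (0.341), Pdia4 (0.257), Atf4 (0.252) and Ddit3 (0.0545) were not called. Without Ctrl mouse 1 of the 1.5-wk group, or without Ctrl mouse 6 of the 4-wk group, 3 were called. With the day of the scan as a fixed block, which rests on Ctrl mouse 4 and AggE mouse 2 at 1.5 wk, each scanned apart from the rest of its group, 2 were called, Creld2 (adjusted p = 0.00281) and Sdf2l1 (adjusted p = 0.0321).

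Since mice of 1 group varied as much as they did, each pair of genes was followed over the 39 mice as deviations from the mean of the own group. Of 45 pairs, 10 passed a permutation test (100000 draws within groups, two-sided, Benjamini-Hochberg adjusted over the 45), 8 with a positive and 2 with a negative correlation. Creld2 and Sdf2l1 moved together most closely, with Pearson's r = 0.68 (p = 1e-05, the smallest these draws can give, adjusted p = 0.00045) and Spearman's rho = 0.74 (p = 1e-05). Without the 2 mice farthest in Creld2, r was 0.68. Hspa5 and Creld2 gave r = 0.63 (permutation p = 2e-04, adjusted p = 0.00225) and rho = 0.65 (p = 0.00016), and 0.61 without the 2 farthest mice. Hsp90b1 and Pdia4 gave r = 0.64 (permutation p = 1e-04, adjusted p = 0.0021) and rho = 0.61 (p = 0.00019), and 0.60 without them.

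Creld2 with Pdia4 (r = 0.61), Sdf2l1 with Pdia4 (0.57) and Hspa5 with Sdf2l1 (0.51) complete a set in which Hspa5, Creld2, Sdf2l1 and Pdia4 were linked, except that Hspa5 with Pdia4 gave r = 0.41 and an adjusted permutation p of 0.0553. The weaker passing pairs were Dnajb9 with Herpud1 (r = 0.46, adjusted permutation p = 0.0339) and Xbp1 with Creld2 (r = 0.43, adjusted permutation p = 0.0457). Hsp90b1 and Ddit3 moved in opposite directions (r = -0.53, adjusted permutation p = 0.0375), as did Herpud1 and Pdia4 (r = -0.48, adjusted permutation p = 0.0361). The rank correlation missed the threshold for Xbp1 with Creld2 and for Hsp90b1 with Ddit3 (adjusted permutation p = 0.0695 in both). It passed for Hspa5 with Pdia4 (rho = 0.46, adjusted permutation p = 0.0379) and for Hspa5 with Xbp1 (rho = 0.48, adjusted permutation p = 0.0384), whose Pearson's r was 0.35. Atf4 had no passing pair by either measure.

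The 2 genes of a pair share an array, so its quality and slide can enter both. Within slides, over the 32 mice with a group mate on their slide, r was 0.70 for Creld2 with Sdf2l1, 0.78 for Hspa5 with Creld2, 0.66 for Hsp90b1 with Pdia4, 0.47 for Dnajb9 with Herpud1, 0.43 for Xbp1 with Creld2, -0.50 for Hsp90b1 with Ddit3 and -0.52 for Herpud1 with Pdia4. The share of probes well above background on an array correlated at -0.50 with Creld2, -0.48 with Pdia4 and -0.36 with Sdf2l1. With that share removed by regression, r was 0.61, 0.62 and 0.59 for the first 3 pairs, 0.49 for Creld2 with Pdia4 and 0.49 for Sdf2l1 with Pdia4. Processing moved some pairs further. With Cy5 alone r was 0.37 for Hsp90b1 with Pdia4, 0.24 for Xbp1 with Creld2, and 0.31 for Dnajb9 with Herpud1, while with no normalization between arrays it was -0.27 for Hsp90b1 with Ddit3. The 10 pairs kept their sign in each of these settings. In Ctrl and AggE livers apart, Creld2 with Sdf2l1 gave 0.68 (n = 18) and 0.72 (n = 21), and Hspa5 with Creld2 0.75 and 0.39. The median r over the 45 pairs was 0.22, and 13.3% exceeded 0.5. Over all pairs of the 3187 genes well above background on all arrays the median was 0.04 and 7.55% exceeded 0.5, and over the 15 pairs of the 6 genes that meet this condition it was 0.38 and 40%.

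**Figure D4:**
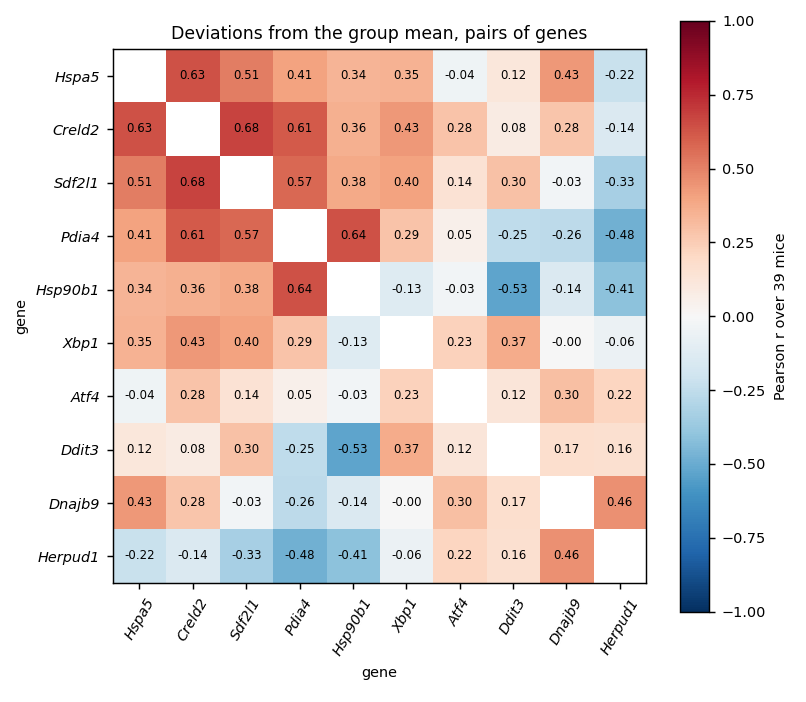
Pearson's r over 39 mice for each pair of the 10 genes, from deviations from the group mean, with red for positive and blue for negative values. Hspa5, Creld2, Sdf2l1 and Pdia4 form a red block with r from 0.41 to 0.68, and Herpud1 is negative with Pdia4 and Hsp90b1 (-0.48 and -0.41).

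For the 2 genes with the smallest p in any comparison, the most similar patterns over the 39 mice were sought among 3181 other genes. Dnajb9 was closest to Hspa8 (r = 0.72), Hsph1 (0.70) and Bag3 (0.68), which encode the constitutive cytosolic HSP70, an HSP110 and an HSP70 cochaperone, and within slides r was 0.74, 0.73 and 0.78. Hsp90b1 was closest to Cct5 (0.74), a subunit of the cytosolic chaperonin, Set (0.73) and Brd7 (0.73). Each is given as a description. The cytosolic heat shock list itself had a median difference of -0.33 over 14 genes 24 h after 5 days, with 0 of 14 called, and Dnajb9 stood at -0.59 there. At 4 wk that list had a median of -0.017 and 1 call, Hspb1, at 1.32 (adjusted p = 0.0392).

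A wider list of 142 genes of the response and of ER protein traffic, of which 136 were on the array, was then read by role. It holds the 10 genes. At 24 h after 5 days 1 of 136 was called, at 24 h after 10 days and at 1.5 wk 0, and at 4 wk 11, of which 3 were higher and 8 lower in AggE. Before adjustment 5 were higher and 10 lower, 1 and 0, 0 and 2, and 24 and 32. Before adjustment 11% of the list passed 24 h after 5 days, where 16.9% of all genes did, 0.735% 24 h after 10 days (2.84% of all genes), 1.47% at 1.5 wk (2.47%) and 41.2% at 4 wk (22.6%). The medians over the list were -0.03, -0.0009, -0.05 and -0.04, near those of all genes. The share of all genes called was 3.27% and 4.13% at the points with calls.

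Asns, asparagine synthetase and a standard ATF4 target, was the gene called 24 h after 5 days. Its log2 ratio ran from -3.68 to -3.18 in Ctrl livers, with a mean of -3.35 ± 0.23 (SD, n = 4), and from -3.06 to -2.05 in AggE livers, with a mean of -2.62 ± 0.39 (SD, n = 5). All 5 AggE livers lay above all 4 Ctrl livers, and the difference was 0.74 ± 0.20 (SE, limma adjusted p = 0.0365). It was 0.63 ± 0.20 (SE) 24 h after 10 days (adjusted p = 1), 0.04 at 1.5 wk and -0.14 at 4 wk. The call was lost, with the same sign, when any 1 Ctrl liver or AggE mouse 2, 3 or 4 was left out, and with slide as a random block. Atf4 mRNA differed by -0.17 in the livers 24 h after 5 days. Of the other ATF4 and CHOP targets well above background in a group there, Cth (0.81) and Eif4ebp1 (0.40) passed before adjustment. Both were higher, with limma adjusted p-values of 0.177 and 0.222. Over the 24 ATF4 and CHOP targets, 13 were higher and 11 lower 24 h after 5 days, with 4 and 1 passing before adjustment, or 20.8% where 16.9% of all genes passed.

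At 4 wk, where 4.13% of all genes were called, the called genes came from several roles. In translocation, glycosylation and export 4 of 29 fell: Surf4, an export receptor of the ER, Sec61a1, the pore of the translocon, Spcs2 of the signal peptidase and Rpn2 of the oligosaccharyltransferase. Surf4 ran from 0.18 to 1.26 in Ctrl livers (median 0.94) and from -0.22 to 0.49 in AggE livers (median 0.03), overlapping, with a difference of -0.77 ± 0.16 (SE, adjusted p = 0.0114). Sec61a1 ran from 0.05 to 0.90 (median 0.60) and from -0.32 to 0.17 (median -0.23), also overlapping, with -0.76 ± 0.16 (SE, adjusted p = 0.0117). Spcs2 differed by -0.49 and Rpn2 by -0.46. Over the 29 genes of this role 14 were higher and 15 lower, with a median of -0.0007. Before adjustment 6 higher and 8 lower passed (48.3%, where 22.6% of all genes did). Of those not called, Rpn1 (-0.51), Ssr1 (-0.48) and Spcs1 (0.46), also of the signal peptidase, differed most, with limma adjusted p-values of 0.0566 to 0.0972.

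Of 22 chaperones and cochaperones 2 fell, Dnajc3 (p58IPK, -0.66) and Sdf2 (-0.39), the paralog of Sdf2l1. In this role 6 were higher and 16 lower. Dnajc1 (-0.36, with no overlap of the groups) passed only before adjustment, as Dnajb9 and Hsp90b1 did. Of 11 sensors and regulators 1 fell, Nfe2l1 (-0.56), an ER-anchored factor for proteasome genes. In this role 6 were higher and 5 lower. Eif2s1 (0.46, with no overlap of the groups), Mbtps1 (-0.41) and Atf6b (0.18) passed only before adjustment. Of 14 disulfide and proline enzymes Erp44, which retains clients in the early secretory path, fell by 0.36 with no overlap of the groups. Creld1, the paralog of Creld2, rose by 0.80 ± 0.22 (SE, limma adjusted p = 0.0371). Of the 14, 7 were higher and 7 lower. Among those passing only before adjustment, P4hb (0.53), Erp29 (-0.52) and Ero1a (-0.51) differed most. Of 7 genes of the ER membrane and cell death 2 rose, Rrbp1 (0.46), a ribosome-binding protein, and Bcap31 (0.42), an ER membrane chaperone. Of the 7, 6 were higher and 1 lower. Tmbim6 differed by 1.13, with overlap of the groups, and passed only before adjustment (limma adjusted p = 0.0621). None of 22 genes of ER-associated degradation and none of 24 ATF4 and CHOP targets was called, with 3 higher and 5 lower (36.4%), and 3 higher and 7 lower (41.7%), before adjustment, where 22.6% of all genes passed.

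In the roles with no call, the genes with the largest differences at an unadjusted p of 0.05 or less did not pass the adjusted test. At 24 h after 5 days these were, beside Dnajb9, Manf (-0.40), a protein of the ER that is secreted under stress, Syvn1 (-0.68), the ubiquitin ligase of ER-associated degradation, Creb3 (-0.31), an ER-anchored transcription factor, and Spcs3 (-0.26) of the signal peptidase, with limma adjusted p-values of 0.105 to 0.259. The Syvn1 values of the groups did not overlap there. At 1.5 wk they were Mesd (-0.57), a chaperone of LDL receptor family proteins, and Syvn1 (-0.58), with an adjusted p of 1 for both. At 4 wk they were Derl2 (-0.56), Os9 (-0.42) and Selenok (-0.41) in ER-associated degradation, with adjusted p-values of 0.0785 to 0.102. Among ATF4 and CHOP targets they were Shmt2 (0.60) and Psat1 (-0.43), enzymes of serine and glycine metabolism, and the lipoprotein receptor gene Vldlr (-0.47), with 0.0641 to 0.182, and among transcription factors Atf3 (-0.54, adjusted p = 0.122) beside Xbp1.

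These 4-wk calls changed when single mice were left out and when slide entered the fit. With slide as a random block 0 of 136 were called, and 13 of all genes, against 702 in the main fit. With slide as a fixed block 4 were called, of which 0 were among the 11, and 10 of the 11 kept their sign, while Creld1 turned to -0.20 (adjusted p = 0.781). That fit again leans on AggE mouse 1, in which Creld1 was -0.51, against 1.09 to 1.41 in the other AggE livers. Leaving out 1 liver at a time gave 3 to 31 calls, with 31 without AggE mouse 1, 3 without AggE mouse 2 or 3, 7 without AggE mouse 5, and 25, 4 and 5 without Ctrl mouse 2, 3 or 4. With Cy5 alone 0 were called, and 6 of all genes.

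**Figure D5:**
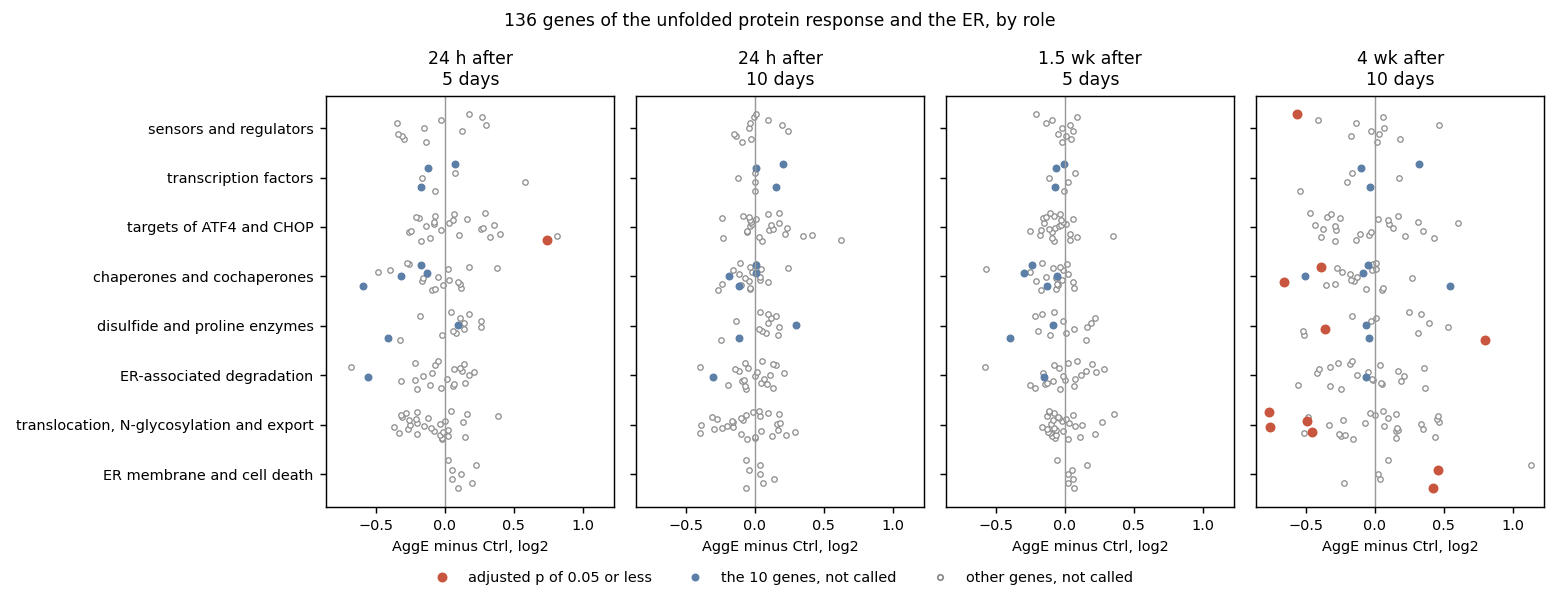
Log2 difference between AggE and Ctrl means (horizontal axes) for the 136 genes of the response and of ER traffic, in rows by role and 1 panel per time point. Red points passed an adjusted p of 0.05, 1 at 24 h after 5 days (Asns) and 11 at 4 wk, and blue points are the 10 genes, of which 0 passed.

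Markers of other cells that a piece of liver may hold were read beside these values. Pancreatic acinar markers, which mark tissue with high levels of these ER genes, were well above background on all arrays of a group for 0 to 3 of 11, and plasma and B cell markers for 2 to 7 of 9, with the highest numbers in both 4-wk groups, whose arrays had 51.5% to 79.9% of all RefSeq probes well above background against 20.1% to 58.0% elsewhere. The summed Cy5 signal of the plasma and B cell markers was 2145 to 2797 at 4 wk, 3031 to 6047 at 1.5 wk and 2295 to 3482 at the 24-h points, and that of the acinar markers 1343 to 1928, 1056 to 1972 and 1128 to 1555. Macrophage markers stood at 3 to 6 of 7, neutrophil and T cell markers at 0 to 2 of 10, stellate and fibroblast markers at 4 to 6 of 7, bile duct markers at 1 to 3 of 5 and endothelial markers at 1 to 5 of 6. Between AggE and Ctrl, the calls, named after their values were seen, were the bile duct marker Spp1 (1.29) and the acinar marker Cela2a 24 h after 5 days and the bile duct marker Epcam at 4 wk, with 0 of the plasma, macrophage, neutrophil, stellate, endothelial and hepatocyte markers at any point. Of 12 circadian genes 1 was called 24 h after 5 days, Npas2, and 0 at the other points. Cela2a and Npas2 were well above background on 0 of the 9 arrays compared and Epcam on 1 of 12, so no size is given for these. At 4 wk 6 of 6 hepatocyte markers were lower by their means, with a median of -0.50 and 0 called. Before adjustment 3 of 7 macrophage markers passed 24 h after 10 days, all higher (42.9%, where 2.84% of all genes did). At 24 h after 5 days 4 of 10 neutrophil and T cell markers passed, 1 higher and 3 lower (40%, against 16.9%). Of those 10, 1 was well above background in a group. At 4 wk 4 of 9 plasma and B cell markers passed, 1 higher and 3 lower (44.4%, against 22.6%). The part of these cells in the differences above was not tested.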

How the data were processed

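Liver RNA of 39 mice, in Cy5, was hybridized on Agilent 2-colour arrays, 1 per mouse, with a reference RNA in Cy3 and no dye swap. Deposited by the authors were the intensity of each spot and its local background, both as medians over pixels and for either dye, read with Agilent Feature Extraction 11.5.1.1 per the file headers. Their deposited log10 ratios of the processed signals served as an alternative. Outlier spots, 0.295% to 1.46% of an array, were treated as missing, control spots were left out, and spots of 1 probe were averaged. From the median intensities, background was corrected with normexp (offset 50), arrays were loess-normalized and then quantile-normalized in limma 3.58.1 (R 4.3.3, statmod 1.5.0, data.table version 1.17.8). RefSeq accessions were named through a GRCm38.p6 gene table. Of 41174 probes, 24939 with RefSeq accessions were tested.

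All 8 groups entered 1 limma fit with 1 mean each. AggE minus Ctrl, differences between these, and an F over Ctrl groups were tested with empirical Bayes moderation and Benjamini-Hochberg adjustment over all probes, at 0.05. Counts use the brightest probe of each of 17013 genes. Named genes are the 10, list genes called (if over 12, the 12 largest), and up to 3 more per role. The latter had an unadjusted p of 0.05 or less and were well above background on all arrays of a group. Where a probe was well above background on no array of a group, its Cy5 signal gave a bound. The fit was tested on simulated data. The genes, lists and tests were chosen with earlier results of these data known. Alternatives covered background, normalization, probe filter, weights, slide, day, replicate number and single mice. Few arrays per group limit the precision.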

Additional observations from a re-analysis of the deposited data

Results flagged for a closer look

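In 3 of 80 sets of a gene and a group, 1 liver stood apart from the rest of its group by Dixon's test at the 95% level, which chance gives in about 1 of 20. AggE mouse 2 at 1.5 wk after the 5-day regimen was lowest for Xbp1 at -1.31, with the next liver at -0.81, and for Sdf2l1 at -1.68, with the next at -0.48. It lay on another slide and was scanned on another day than the other 4 livers of its group. AggE mouse 4 at 24 h after the 5-day regimen was highest for Pdia4 at 1.36, with the next liver at 0.70, and it shared its slide with 3 livers of its group. Without these livers the difference between AggE and Ctrl was 0.11 for Xbp1 and 0.04 for Sdf2l1 at 1.5 wk, in place of -0.0092 and -0.24, and -0.05 in place of 0.10 for Pdia4, with limma adjusted p-values of 0.946 or above.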

How the results depend on the processing

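In the 4 comparisons of AggE with Ctrl, and in the 3 differences between them, 0 of the 10 genes were called under each alternative, except at 4 wk, where no normalization between arrays gave 2, Aquantile 2 (it leaves the ratios of the former as they are) and leaving out single mice 0 to 1 (1 without AggE mouse 1, Xbp1). Without adjustment 1 gene passed 24 h after 5 days and 3 at 4 wk. Over the alternatives that keep all mice, the median over the 10 lay between -0.41 and -0.14 (24 h after 5 days), -0.06 and 0.02 (24 h after 10 days), -0.15 and -0.07 (1.5 wk) and -0.09 and 0.16 (4 wk). The list of 136 genes, called 1 time 24 h after 5 days, gave 3 with no background subtraction, 5 with an offset of 16, 4 with Cy5 alone, 4 with array weights, 0 to 3 without single mice, and 0 with the signals processed by Feature Extraction, the deposited ratios, no normalization between arrays, Aquantile, only probes well above background, only the groups compared, or slide as a random block. Its 11 calls at 4 wk became 7 with no background subtraction, 4 with an offset of 16, 4 with the processed signals, 5 with the deposited ratios, 31 with no normalization between arrays, 31 with Aquantile, 0 with Cy5 alone, 18 over probes well above background, 6 with the mean over probes, 2 with only the groups compared, 29 with array weights, 0 with slide as a random block, 4 with slide as a fixed block (where Creld1 turned to -0.20, and which leans on AggE mouse 1) and 3 to 31 without single mice. The 5 calls among Ctrl livers became 3 with an offset of 16, 0 with slide as a random block, 2 with the day of the scan as a block and 3 to 6 without single mice. In the comparisons of AggE with Ctrl, calls over all genes moved as well. At 4 wk 702 genes were called, against 1718 with no normalization between arrays and 1825 with array weights. An offset of 16 gave 249, only the groups compared 82, slide as a random block 13 and Cy5 alone 6. At 24 h after 5 days 556 were called, against 952 with an offset of 16 and 1159 with array weights. No normalization between arrays gave 16 there, and slide as a random block 9. Other causes of these shifts were not tested. Same-numbered Ctrl and AggE mice deviated together at -0.45 to 0.50, which cannot tell whether the numbers pair the mice. With a replicate block the medians were -0.14, -0.05, -0.13 and -0.05, the 10 genes had 0 calls and the list 1 and 9. Slide as a fixed block could not be fitted at 24 h, where no slide held Ctrl and AggE livers together. The replicate block was not run for the comparison among Ctrl livers. Dim probes (Ddit3, and the lesser Dnajb9 probes) limit what can be said of those genes.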

Other observations

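For the other 8 genes, chosen after their values were seen, the 3 closest patterns each over the 39 mice among 3181 other genes had r from 0.58 to 0.81, and 2 of these 24 neighbours, Edem1 and Syvn1, are on the list of the response and of ER traffic. Xbp1 was closest to Edem1 (r = 0.80, and 0.72 within slides), which helps to pull misfolded glycoproteins out of the folding cycle, then to Fdps (0.76), an enzyme of sterol synthesis, and Slc25a3 (0.75), the mitochondrial phosphate carrier. Creld2 was closest to Tmed3 (0.67), a cargo receptor of early vesicles, Syvn1 (0.66), the ubiquitin ligase of ER-associated degradation, and Serpinh1 (0.61), the collagen chaperone of the ER. Pdia4 was closest to Ccnq (0.70), a cyclin, Serpinh1 (0.70) and Lars (0.67), a leucyl-tRNA synthetase. Hspa5 was closest to Sumo2 (0.71), Arf4 (0.69) and Hmgn2 (0.65). Sdf2l1 was closest to Copa (0.68), a subunit of the coat of Golgi vesicles, Ifitm2 (0.65) and 1110004F10Rik (0.58).

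Ddit3 was closest to Stip1 (0.81), which links cytosolic HSP70 and HSP90, Yipf3 (0.79) and Prelid1 (0.79). Atf4 was closest to Dnajb1 (0.69), a cytosolic HSP40, Actg1 (0.65) and Pgd (0.64). Herpud1 was closest to Por (0.77, and 0.79 within slides), the reductase of the cytochrome P450 enzymes in the ER membrane, St3gal5 (0.74) and Mfsd2a (0.74). These values are descriptions over mice that share arrays and slides, and were not tested.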
